A study of Homo sapiens with 16 samples.

Results

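LYZ, MNDA, CD4, CD14, CSF1R, FCGR1A, CD86, CD36, FCER1G and TYROBP are genes that monocytes express as they mature. These 10 genes, of 43836 in the count table, were chosen because LYZ, MNDA and CD4 were higher in FOXM1-knockdown than in control cells of the KG-1 line; the other 7 were added as genes of the same programme. The comparison of the 2 cell populations with vehicle is given below as a description only. The choice does not name a treatment, so values of LYZ, MNDA and CD4 are a description with no p-value throughout, and counts of 10 genes that include them support nothing. All 10 symbols were found in the table through their Ensembl identifiers.

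Monocytes arise from myeloid progenitors that lose the stem cell antigen CD34 and switch on receptors and enzymes of innate defence. The transcription factor PU.1 (SPI1) works with C/EBP, IRF and RUNX factors to drive this programme, and acute myeloid leukaemia (AML) is a block of such maturation. LYZ encodes the secreted antibacterial enzyme lysozyme and MNDA a nuclear antigen of myeloid cells, while CD4, the coreceptor of helper T cells, is also carried by monocytes. CSF1R is the receptor of the monocyte growth factor CSF1, CD14 the coreceptor for lipopolysaccharide, CD36 a scavenger receptor and CD86 a ligand of the T cell receptors CD28 and CTLA4. FCGR1A is the high-affinity IgG receptor, and it signals through FCER1G, an adapter with an immunoreceptor tyrosine-based activation motif (ITAM). TYROBP (DAP12) is the ITAM adapter of TREM and related receptors.

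RNA-seq had been performed on 16 libraries of KG-1, a human AML line of myeloblast type, with 2 libraries for each of 8 conditions. All cells carried a pLKO.1 lentiviral vector with either a non-target shRNA (Control) or an shRNA against FOXM1 (FOXM1-KD) and had been selected with 4 µg/mL puromycin, and the sources used here describe 1 stably transduced population of each. Control cells received 0.3% DMSO, 50 µM STL427944 (a FOXM1 inhibitor), 0.75 µM AraC (cytarabine, a nucleoside that stops DNA synthesis) or 0.1 µM venetoclax (a BCL2 inhibitor) for 48 h, or 30 µM MK-2206 (an allosteric AKT inhibitor) for 24 h. FOXM1-KD cells received DMSO, AraC or venetoclax at the same doses for 48 h. The submitters call the 2 libraries of a condition biological replicates, and separate transductions are not described, so the p-values measure the spread between cultures of the same populations.

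The libraries held 7351755 to 21362546 counts, and the lowest totals, 7351755 and 10330720, belonged to MK-2206. Mitochondrial transcripts took 6.68% to 18.4% of the counts after MK-2206 and 1.32% to 3.05% in the other 14 libraries. Levels are given as CPM, which are counts scaled by the library total after multiplying that total by the library's TMM factor from edgeR. FOXM1, the targeted gene, was at 140 and 138 CPM in Control cells with DMSO. In FOXM1-KD cells with DMSO, FOXM1 was at 48.8 and 81.8 CPM. Under venetoclax FOXM1 was at 121 and 127 CPM in Control and at 50.6 and 57.0 CPM in FOXM1-KD cells, and under AraC at 181 and 156 CPM against 121 and 114 CPM. FOXM1 was at 21.7 and 19.8 CPM after MK-2206 and at 137 and 112 CPM after STL427944. Thus FOXM1 was lower in FOXM1-KD libraries in each pairing, but under AraC the difference was 1.47-fold and did not reach the 2-fold limit used for calls. CD34, the antigen KG-1 is known for, set the libraries apart more sharply. The 8 Control libraries with DMSO, STL427944, venetoclax or AraC had 12483 to 28951 CD34 counts, whereas the 6 FOXM1-KD libraries had 0 to 4 and the MK-2206 libraries 7 and 18. CD34 therefore divides the libraries almost as FOXM1-KD status does, with MK-2206 on the FOXM1-KD side, and every comparison of these sides below includes that difference. Whether the 8 libraries without CD34 hold the same kind of cell as the other 8 was not tested.

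The start sites of these genes are shown because most carry a short match to the PU.1 core. RefSeq promoter windows of 300 bases on GRCh38.p14 (250 bases before and 50 after a start) matched 8 of the 10 genes with 15 windows in all, and LYZ and CD4 had no entry. The letters GAGGAA, on either strand, occurred in 7 of the 8 genes and in 10 of the 15 windows, and in 27.9% of all 35114 windows of the table. The RUNX letters TGTGGT occurred in 5 of the 8 genes and in 7 of the 15 windows (13.1% of all windows), and the C/EBP letters TTNNGNAA in 5 genes and in 6 of the 15 windows (36.8%). Genes with several windows had more chances of a match. CD36 had 6 windows, and its windows 3 and 4 overlap and hold the same GAGGAA match, which is counted in both. The share of all genes with a match was not computed, so the counts of genes have no background. In the following windows, written 5′ to 3′ along the gene's own strand, capitals mark GAGGAA or its complement TTCCTC. MNDA, CD14, CSF1R and TYROBP are shown as genes with a match, and FCER1G as the 1 matched gene without it.
MNDA (chr1:158831101-158831400, plus strand): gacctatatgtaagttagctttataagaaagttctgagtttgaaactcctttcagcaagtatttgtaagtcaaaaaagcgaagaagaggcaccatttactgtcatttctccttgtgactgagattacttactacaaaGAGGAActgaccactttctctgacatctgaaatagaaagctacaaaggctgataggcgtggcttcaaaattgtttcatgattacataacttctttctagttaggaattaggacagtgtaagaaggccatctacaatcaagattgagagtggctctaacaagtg
CD14 (chr5:140633126-140633425, minus strand): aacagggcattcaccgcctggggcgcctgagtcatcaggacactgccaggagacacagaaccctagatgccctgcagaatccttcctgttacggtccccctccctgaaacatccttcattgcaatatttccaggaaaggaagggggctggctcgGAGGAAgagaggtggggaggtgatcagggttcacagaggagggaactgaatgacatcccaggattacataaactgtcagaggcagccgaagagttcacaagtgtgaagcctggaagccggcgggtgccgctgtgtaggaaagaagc
CSF1R (chr5:150086505-150086804, minus strand): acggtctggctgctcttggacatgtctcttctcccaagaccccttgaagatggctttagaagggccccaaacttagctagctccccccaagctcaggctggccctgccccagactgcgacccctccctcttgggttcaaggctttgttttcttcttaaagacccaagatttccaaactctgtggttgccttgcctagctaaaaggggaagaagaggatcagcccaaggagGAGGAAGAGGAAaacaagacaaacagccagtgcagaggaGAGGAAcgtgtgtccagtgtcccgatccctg
TYROBP (chr19:35908246-35908545, minus strand): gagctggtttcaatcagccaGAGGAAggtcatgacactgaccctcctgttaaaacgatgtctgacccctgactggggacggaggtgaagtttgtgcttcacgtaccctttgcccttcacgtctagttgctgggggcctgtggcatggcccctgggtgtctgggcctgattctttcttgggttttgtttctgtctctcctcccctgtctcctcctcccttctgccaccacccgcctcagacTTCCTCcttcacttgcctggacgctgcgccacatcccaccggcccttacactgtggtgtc
FCER1G (chr1:161215045-161215344, plus strand): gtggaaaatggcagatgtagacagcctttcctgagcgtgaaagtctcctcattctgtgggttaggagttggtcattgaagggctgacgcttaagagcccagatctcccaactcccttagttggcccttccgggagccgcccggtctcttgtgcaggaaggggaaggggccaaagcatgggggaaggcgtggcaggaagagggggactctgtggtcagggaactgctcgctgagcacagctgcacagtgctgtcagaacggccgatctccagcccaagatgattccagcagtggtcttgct

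In MNDA the match lay 113 bases before the start, in CD14 96 bases, and in TYROBP 230 and 10 bases. CSF1R had 3 matches in the window shown, 20 and 14 bases before and 19 bases after the start, and none in its other window. These matches describe letters only, and binding was not measured.

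Levels differed widely between the genes. With DMSO, the highest level per kilobase of exon in FOXM1-KD cells was that of LYZ at 533 ± 305 CPM per kilobase (SD, n = 2), followed by CD4 at 60.0 ± 0.445, TYROBP at 29.6 ± 1.26 and MNDA at 11.4 ± 1.89. The other 6 genes lay between 0.0437 (CD36) and 1.02 CPM per kilobase (CSF1R) in those cells. In Control cells with DMSO, the leading genes per kilobase were LYZ at 9.58 ± 1.11, FCER1G at 7.43 ± 3.51 and TYROBP at 3.12 ± 0.561. CD14, the antigen most used to name monocytes, thus stayed low on this scale in every condition, with a highest mean of 3.46 ± 1.09 CPM per kilobase in FOXM1-KD cells with AraC. All further values are CPM, which compare 1 gene between libraries.

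**Figure D1:**
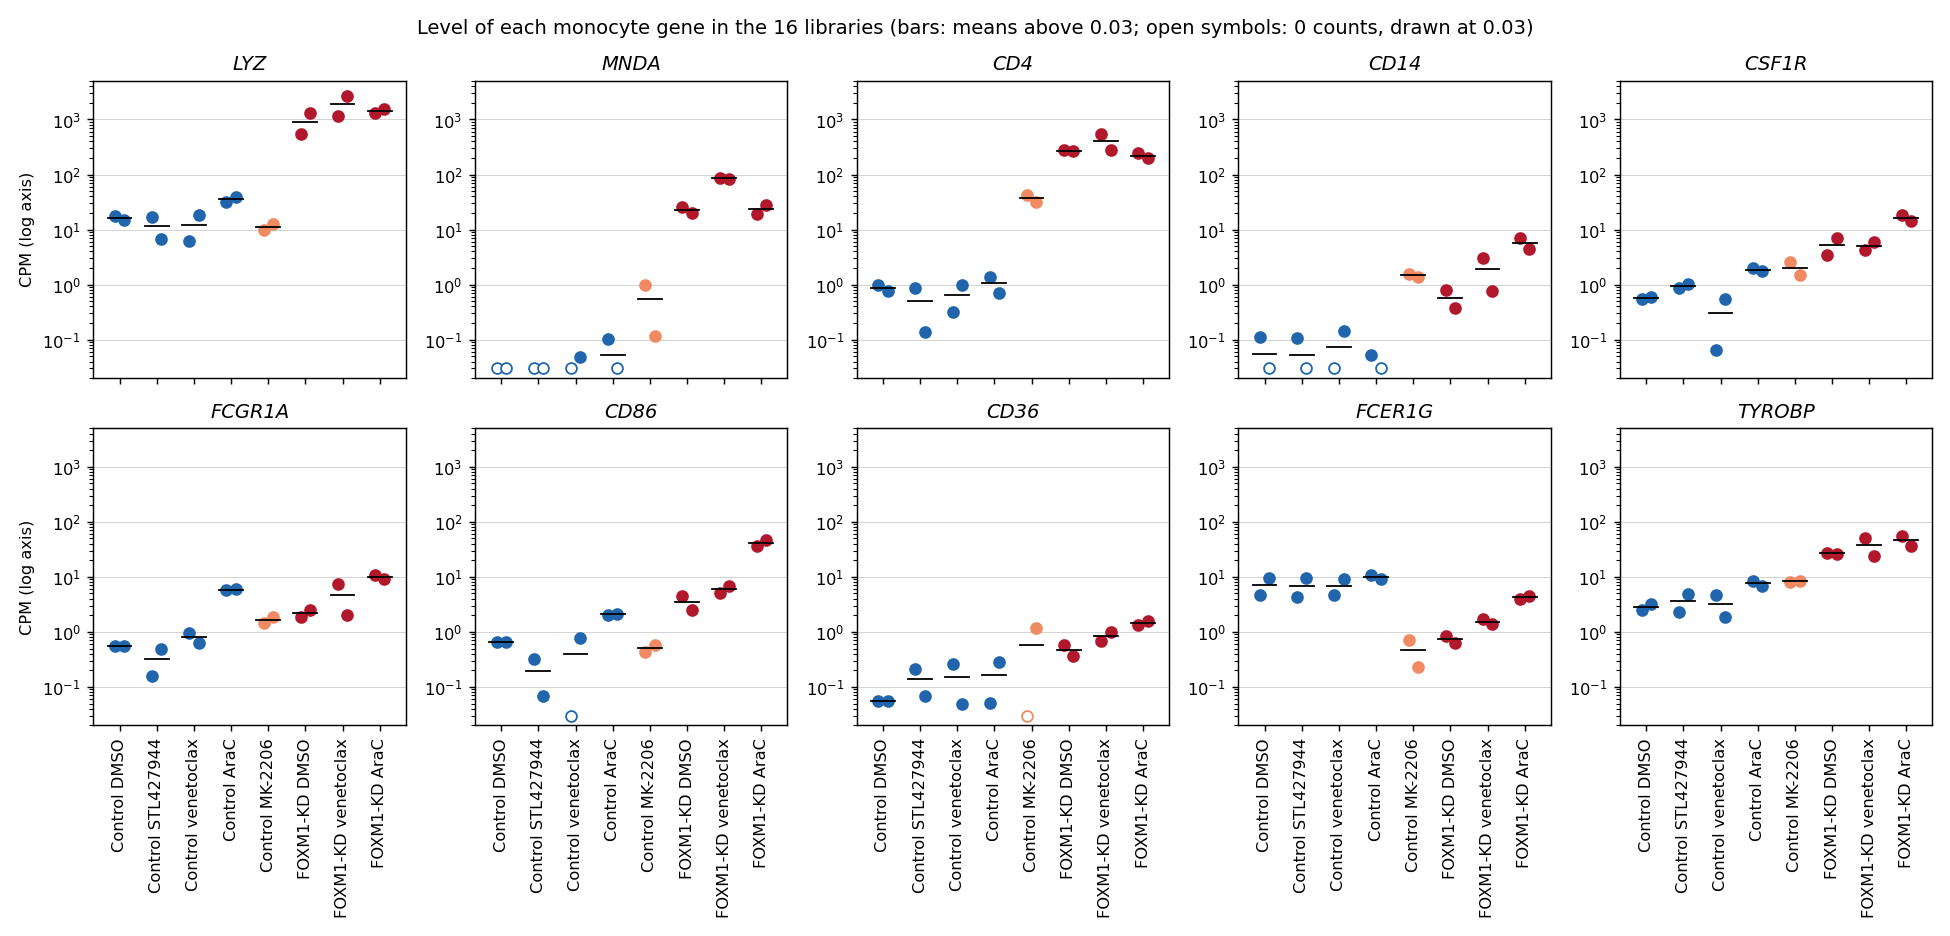
CPM of each gene on a log axis in the 16 libraries, 2 points per condition with a bar at their mean; blue is Control, orange Control with MK-2206 and red FOXM1-KD. LYZ lies at 548 to 2708 CPM in the 6 FOXM1-KD libraries and at 6.17 to 38.9 CPM in the 10 Control libraries. FCER1G lies at 0.633 to 4.58 CPM in FOXM1-KD libraries and at 0.231 to 0.714 CPM with MK-2206. In the other 8 Control libraries FCER1G lies at 4.39 to 10.6 CPM.

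With DMSO, 9 of the 10 genes were higher in FOXM1-KD than in Control cells and FCER1G was lower; the median log2 fold change of the 10 was 3.22, against -0.01 over 15327 protein-coding genes. These are the libraries the genes were chosen on, so no test is given. Among the 3 genes that led to the choice, LYZ was at 548 and 1291 CPM in FOXM1-KD and at 17.9 and 15.2 CPM in Control cells. MNDA was at 25.8 and 20.4 CPM against 0 counts in both Control libraries, which allows up to 0.164 and 0.165 CPM, and was at least 140-fold higher against that limit of 3 counts per library. CD4 was at 275 and 272 CPM against 0.987 and 0.769 CPM. The FOXM1-KD libraries differed from each other 2.36-fold for LYZ and 1.01-fold for CD4.

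Of the receptors with DMSO, CSF1R was at 3.38 and 7.17 CPM in FOXM1-KD and at 0.548 and 0.604 CPM in Control cells. CD86 was at 4.50 and 2.53 CPM against 0.658 and 0.659 CPM, and FCGR1A at 1.85 and 2.53 CPM against 0.548 and 0.549 CPM. CD14 had 15 and 7 counts against 2 and 0, and CD36 had 11 and 7 counts against 1 and 1. These last values rest on few reads: the ratio of pooled counts was 10.6 for CD14 (95% exact interval 2.60 to 92.9) and 8.66 for CD36 (2.07 to 77.0), and such intervals cover counting error only. The adapters diverged, with TYROBP at 27.6 and 26.0 CPM against 2.47 and 3.19 CPM, and FCER1G at 0.846 and 0.633 CPM against 4.77 and 9.56 CPM.

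The populations were also compared under AraC and venetoclax, in separate libraries of the same transduced populations. Calls required a change of at least 2-fold together with a Benjamini-Hochberg adjusted p below 0.1 in edgeR's quasi-likelihood test. Under AraC, 8 of the 10 genes were called higher in FOXM1-KD cells and FCER1G lower, where 33.7% of all 16030 protein-coding genes tested were called in either direction. Under venetoclax all 10 genes were called, 9 higher and FCER1G lower, with 30.4% of 16207 called. Without LYZ, MNDA and CD4, 6 of the other 7 genes were called under AraC, 5 higher and 1 lower, and all 7 under venetoclax, 6 higher and 1 lower. The median log2 fold change of the 10 genes was 3.69 under AraC and 3.89 under venetoclax, beside 0.03 and 0.11 over all protein-coding genes. Because all 10 had reads in every comparison made between the populations, no gene was lost to a filter. The 6 genes called under AraC among these 7 kept their direction and a change of at least 2-fold when each library was left out in turn. In bulk RNA, a larger share of cells with a transcript and more transcript per cell cannot be told apart.

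The enzyme LYZ was at 1307 and 1535 CPM in FOXM1-KD cells with AraC and at 32.1 and 38.9 CPM in Control cells with AraC. Under venetoclax LYZ was at 1142 and 2708 CPM against 6.17 and 18.4 CPM. The log2 fold changes were 5.28 ± 0.16 (SE) and 7.28 ± 0.33. MNDA was at 19.0 and 27.6 CPM with AraC and 88.2 and 81.4 CPM with venetoclax in FOXM1-KD cells, against 2 and 1 counts in all over the paired Control libraries. The ratios of pooled MNDA counts were 476 (131 to 3934) and 3049 (547 to 120480), so the size of the change is known only within wide limits. CD4 was at 246 and 196 CPM against 1.40 and 0.713 CPM with AraC, and at 543 and 280 CPM against 0.322 and 0.976 CPM with venetoclax. Its log2 fold changes were 7.68 ± 0.29 and 9.24 ± 0.46.

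**Figure D2:**
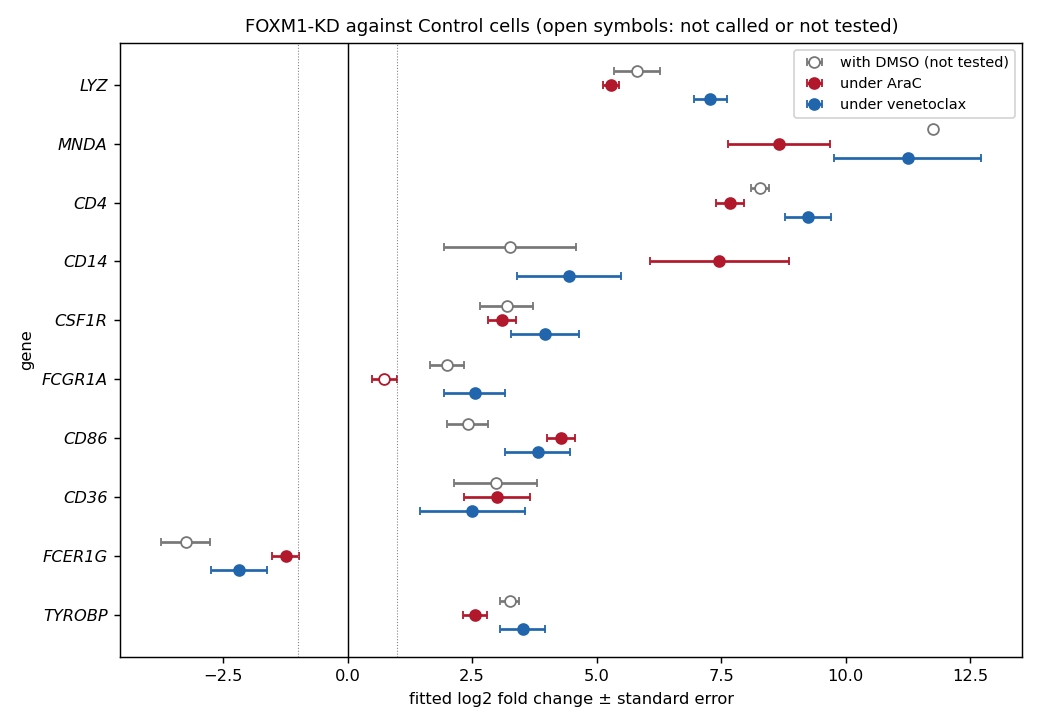
Fitted log2 fold change of each gene in FOXM1-KD against Control cells, with standard errors, with DMSO (grey, not tested), AraC (red) and venetoclax (blue); filled symbols pass the rule for calls, which for LYZ, MNDA and CD4 is a description, and dotted lines mark 2-fold. FCER1G lies at -3.25, -1.24 and -2.18, left of 0, and the other genes lie right of it, while MNDA values depend on the prior count because its Control libraries have almost no reads.

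Among the receptors, the growth factor receptor CSF1R was at 18.6 and 14.4 CPM in FOXM1-KD against 1.96 and 1.76 CPM in Control cells with AraC, a log2 fold change of 3.10 ± 0.29. With venetoclax CSF1R was at 4.17 and 5.91 CPM against 0.0643 and 0.537 CPM (3.96 ± 0.69), and the change was 6.12 without Control venetoclax replicate 2. CSF1R overlaps the pseudogene RPL7P1 on the opposite strand, and a strand setting for the counting is not given in the sources used here. The costimulatory ligand CD86 was at 36.3 and 47.0 CPM against 2.07 and 2.09 CPM with AraC (4.28 ± 0.28). With venetoclax CD86 was at 5.12 and 6.75 CPM against 0 and 0.781 CPM (3.82 ± 0.65, adjusted p = 1.18e-07), although DESeq2 gave it an adjusted p of 0.173. Without Control venetoclax replicate 1 the change was 2.91, and without replicate 2 it was 9.54, a value set by the prior count because the remaining Control library had 0 counts.

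CD14 had 118 and 84 counts in FOXM1-KD and 1 and 0 in Control cells with AraC, a ratio of 227 (40.3 to 9005). With venetoclax CD14 had 45 and 13 counts against 0 and 3, a ratio of 22.2 (7.23 to 111), and without FOXM1-KD venetoclax replicate 1 its adjusted p in edgeR was 0.190. The fitted log2 fold change of CD14 under venetoclax was 4.44 with all libraries and 7.90 without Control venetoclax replicate 2, where again 0 counts remained. CD36 had 23 and 30 counts against 1 and 6 with AraC (log2 fold change 3.00 ± 0.66) and 10 and 17 against 4 and 1 with venetoclax (2.50 ± 1.05, adjusted p = 0.0548). The venetoclax call of CD36 was lost in DESeq2 and when FOXM1-KD venetoclax replicate 1 or 2 or Control venetoclax replicate 2 was left out, with adjusted p-values of 0.174 to 0.438 in edgeR. Leaving out Control AraC replicate 2 moved the AraC change of CD36 to 4.64, and leaving out Control venetoclax replicate 1 moved that under venetoclax to 3.93. CD14 and CD36 are thus the receptors with the fewest reads behind their calls.

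FCGR1A gave the 1 comparison that was not called. With AraC it was at 11.0 and 9.05 CPM in FOXM1-KD and at 5.69 and 5.99 CPM in Control cells, a log2 fold change of 0.74 ± 0.26 (adjusted p = 0.0125) that stayed under 2-fold. With venetoclax FCGR1A was at 7.38 and 2.03 CPM against 0.965 and 0.634 CPM (2.55 ± 0.61, adjusted p = 0.000424). Without FOXM1-KD venetoclax replicate 1 this fell to 1.35 with an adjusted p of 0.464. The copies FCGR1BP and FCGR1CP, which are nearly identical to FCGR1A, had up to 101 and 51 counts per library, and H2BC18, a histone gene on the opposite strand, overlaps FCGR1A with 76606 counts over the 16 libraries. Values of FCGR1A are therefore uncertain.

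The ITAM adapters moved apart. TYROBP was at 55.0 and 37.1 CPM in FOXM1-KD against 8.48 and 6.70 CPM in Control cells with AraC (log2 fold change 2.56 ± 0.24), and at 50.8 and 23.7 CPM against 4.70 and 1.85 CPM with venetoclax (3.52 ± 0.45). FCER1G was at 3.95 and 4.58 CPM against 10.6 and 9.08 CPM with AraC, and at 1.71 and 1.37 CPM against 4.63 and 9.32 CPM with venetoclax. It fell by 1.24 ± 0.27 (adjusted p = 1.53e-05) and by 2.18 ± 0.56 (adjusted p = 0.00121) on the log2 scale. Without FOXM1-KD venetoclax replicate 2 the adjusted p of FCER1G under venetoclax was 0.115. The order of FCER1G over all conditions ran from 9.86 ± 1.11 CPM in Control cells with AraC through 7.16, 6.98 and 6.94 CPM in the other 48 h Control groups to 4.27, 1.54 and 0.740 CPM in FOXM1-KD cells with AraC, venetoclax and DMSO, and 0.473 CPM after MK-2206. Library ranges overlapped from the highest group down to FOXM1-KD with AraC, and again between the last 2 groups.

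The response to AraC was compared with DMSO within each population. In Control cells 5 of the 10 genes rose and none was called lower, where 8.16% of 15090 protein-coding genes were called. FCGR1A rose most, from 0.548 and 0.549 CPM to 5.69 and 5.99 CPM, or 3.38 ± 0.34 on the log2 scale (edgeR, adjusted p = 1.7e-06). CSF1R rose by 1.66 ± 0.39, CD86 by 1.63 ± 0.37 and TYROBP by 1.40 ± 0.24 on the log2 scale, with adjusted p-values from 0.000655 to 0.00629. LYZ, the fifth gene past the thresholds, was higher by 1.09 ± 0.17. AraC and DMSO libraries did not overlap in these 5 genes and overlapped in the other 5, where 59.6% of protein-coding genes did not overlap. MNDA had 2 and 0 counts and CD14 1 and 0 counts in Control cells with AraC, and CD4 was at 1.40 and 0.713 CPM after 0.987 and 0.769 CPM with DMSO, so none of these 3 was called. Without either Control AraC library, no protein-coding gene at all was called, the 5 included, and without Control DMSO replicate 2 the change of LYZ was 0.97, just under 2-fold.

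In FOXM1-KD cells AraC raised 6 of the 10 genes, where 14.3% of 15415 protein-coding genes were called. CD86 rose from 4.50 and 2.53 CPM to 36.3 and 47.0 CPM, which is 3.49 ± 0.32 on the log2 scale (edgeR, adjusted p = 2.19e-21). CD14 rose by 3.20 ± 0.47, from 15 and 7 counts to 118 and 84. FCER1G rose by 2.45 ± 0.46, FCGR1A by 2.11 ± 0.38, CSF1R by 1.56 ± 0.34 and CD36 by 1.54 ± 0.58 (adjusted p = 0.0492 in edgeR). AraC and DMSO libraries did not overlap in 9 of the 10 genes, the uncalled LYZ, TYROBP and CD4 among them, nor in 53.9% of protein-coding genes. CD36 was not called by DESeq2 (adjusted p = 0.240). LYZ (0.55 ± 0.24), TYROBP (0.70 ± 0.29) and CD4 (-0.38 ± 0.25) were not called, and MNDA was at 19.0 and 27.6 CPM against 25.8 and 20.4 CPM. Without either FOXM1-KD AraC library no protein-coding gene was called in this comparison.

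**Figure D3:**
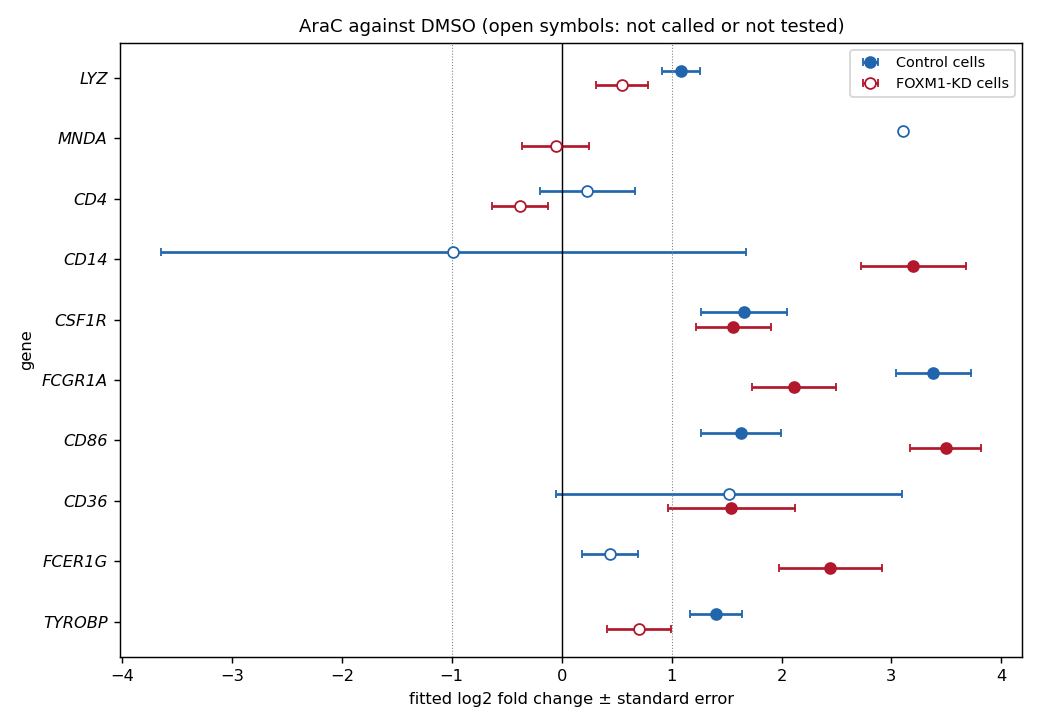
Fitted log2 fold change of each gene with AraC against DMSO, with standard errors, in Control (blue) and FOXM1-KD cells (red); filled symbols are called and dotted lines mark 2-fold. CD86 lies at 1.63 in Control and 3.49 in FOXM1-KD cells, and FCER1G at 0.44 and 2.45.

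The difference between these responses was tested as an interaction for the 7 genes whose change with DMSO had not led to the choice. CD86 and FCER1G were called, both with the larger rise in FOXM1-KD cells, where 7.18% of 16388 protein-coding genes were called. The response of FCER1G was larger by 2.08 ± 0.49 on the log2 scale (adjusted p = 0.000898) and that of CD86 by 1.94 ± 0.49 (adjusted p = 0.00511). The 2 calls were lost when either Control AraC library was left out, with adjusted p-values of 0.126 and 0.244 for FCER1G and 0.174 and 0.241 for CD86, and in 1 fit of all 16 libraries (0.140 and 0.218). FCER1G also lost its call without Control DMSO replicate 2 (0.179). FCGR1A had the larger rise in Control cells, with a difference of -1.18 ± 0.54 that was not called (adjusted p = 0.242).

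Venetoclax moved fewer of the genes. In FOXM1-KD cells 2 of the 10 genes, LYZ and MNDA, passed the thresholds of edgeR with venetoclax, where 2.84% of 15667 protein-coding genes were called. MNDA went from 25.8 and 20.4 CPM to 88.2 and 81.4 CPM, which is 1.90 ± 0.32 on the log2 scale. LYZ was higher by 1.08 ± 0.27, but its libraries overlapped, from 548 and 1291 CPM to 1142 and 2708 CPM, and DESeq2 did not call it. Both genes were chosen for being high in FOXM1-KD cells, so these values carry no test. Without either FOXM1-KD venetoclax library no protein-coding gene was called. The change of LYZ was 0.32 without FOXM1-KD venetoclax replicate 2, 0.59 without FOXM1-KD DMSO replicate 1 and 1.82 without FOXM1-KD DMSO replicate 2, and MNDA did not pass without FOXM1-KD DMSO replicate 2. CD14 had 45 and 13 counts after 15 and 7 with DMSO and was not called (1.72 ± 0.61, adjusted p = 0.174).

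In Control cells none of the 10 genes was called with venetoclax by edgeR, and no protein-coding gene of 14898 was (0%). At an unadjusted p under 0.05, edgeR held 0 of the 10 and 122 of all protein-coding genes, and DESeq2 called 0 of either. None of 9 tested genes was called with STL427944 (0% of 14916 protein-coding genes), with 0 of the 9 and 174 of all at an unadjusted p under 0.05, and DESeq2 called 0 of the 9 and 1 in all. MNDA had no reads in these 4 libraries and was not tested. The difference in venetoclax response between the populations was called for 0 of the 7 genes in edgeR and in DESeq2 and for 0 at an unadjusted p under 0.05, where 1.1% of 16569 protein-coding genes were called. The comparisons with DMSO in Control cells share the same 2 DMSO libraries. Replicates differed widely in Control cells with STL427944 and venetoclax. The chi-square statistic divided by its degrees of freedom was 84.1 and 103 there, and 8.58 with DMSO. The lack of calls therefore does not show that the genes were unchanged.

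MK-2206 changed 8 of the 10 genes in Control cells, 7 higher and FCER1G lower, where 54.6% of 17653 protein-coding genes were called. Without LYZ, MNDA and CD4, 6 of the other 7 were called, 5 higher and 1 lower. Time differed together with the drug, 24 h against 48 h for DMSO. CD4 went from 0.987 and 0.769 CPM to 41.8 and 32.2 CPM (5.45 ± 0.39 on the log2 scale), given as a description because CD4 and MNDA were chosen for being low in these Control cells. TYROBP rose by 1.62 ± 0.39 to 8.14 and 8.44 CPM, CSF1R by 1.86 ± 0.64 to 18 and 13 counts and FCGR1A by 1.64 ± 0.68 to 1.43 and 1.85 CPM. CD14 rose from 2 and 0 to 11 and 12 counts, a ratio of 26.8 (6.62 to 234), and its fitted change went from 4.59 to 7.10 without Control DMSO replicate 1. MNDA went from 0 and 0 to 7 and 1 counts. MK-2206 replicate 2, at 0.116 CPM, lay below the 3-count limits of the DMSO libraries (0.164 and 0.165 CPM), so the size of the MNDA difference is not known. CD36 had 0 and 10 counts against 1 and 1, so its call (adjusted p = 0.054) rested on MK-2206 replicate 2, and without that library the log2 fold change turned to -2.87 (adjusted p = 0.472).

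FCER1G fell by 3.89 ± 0.64 (adjusted p = 1.41e-11) to 5 and 2 counts after MK-2206, with an adjusted p of 0.101 or 0.127 when either MK-2206 library was left out. LYZ was at 9.71 and 12.6 CPM against 17.9 and 15.2 CPM with DMSO and was not called (-0.49 ± 0.32), and CD86 at 0.428 and 0.578 CPM was not called either (-0.30 ± 0.89). Without a Control DMSO library fewer of the 8 genes were called. MNDA, CSF1R, FCGR1A and CD36 lost their calls without either of these libraries, TYROBP did so without Control DMSO replicate 1 (adjusted p = 0.107), and MNDA also without MK-2206 replicate 1. DESeq2 called 5 of the 10 genes and 8631 of 17653 protein-coding genes. Its adjusted p-values were 0.101 for CSF1R, 0.180 for FCGR1A and 0.202 for CD36. Over the libraries left out, the log2 fold change of CD14 was 3.70 to 7.10. That of CD4, a description only, was 5.23 to 5.63. CD4 was thus higher after MK-2206, as it was in FOXM1-KD cells, and LYZ was not, with means of 11.2 ± 2.04 CPM (MK-2206) and 919 ± 525 CPM (FOXM1-KD, DMSO). The scaling shifted the zero point of this comparison, with a median log2 fold change over all tested protein-coding genes of 0.43 under TMM, 0.21 where library totals alone were used and 0.53 under the size factors of DESeq2, and 8 of the 10 genes were called under each.

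**Figure D4:**
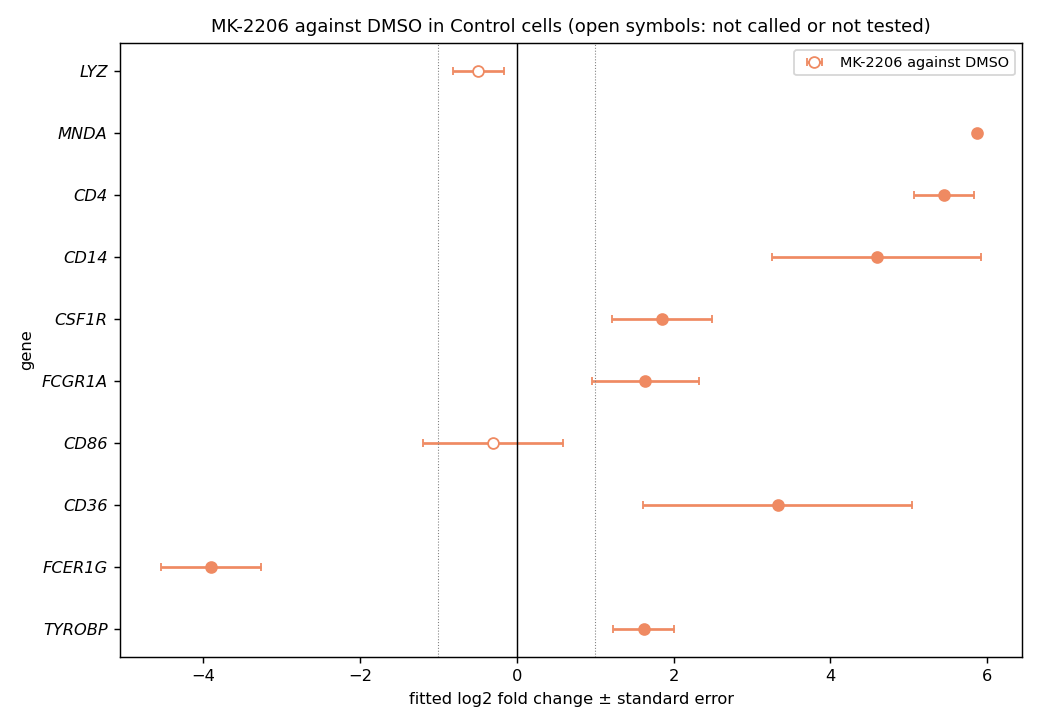
Fitted log2 fold change of each gene with MK-2206 against DMSO in Control cells, with standard errors where the DMSO libraries hold reads; filled symbols are called and dotted lines mark 2-fold. CD4 lies at 5.45 and FCER1G at -3.89, while LYZ at -0.49 and CD86 at -0.30 are open.

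Across conditions, the order of levels put the 3 FOXM1-KD groups first for LYZ, MNDA, CD4, CSF1R, CD86 and TYROBP. For LYZ the order was venetoclax (1925 ± 1107 CPM), AraC (1421 ± 162) and DMSO (919 ± 525) in FOXM1-KD cells, then Control with AraC (35.5 ± 4.83), with the ranges of the first 2 groups overlapping. The other Control groups overlapped with their neighbours in the order, though DMSO lay above MK-2206. For CD4 the order was venetoclax, DMSO and AraC (412, 273 and 221 CPM) in FOXM1-KD cells, then MK-2206 (37.0), each apart from the next, and then the other Control groups, which overlapped at 0.498 to 1.05 CPM. For CD86 it was AraC (41.6), venetoclax (5.94) and DMSO (3.51) in FOXM1-KD cells and then Control with AraC (2.08), each apart from the next. Apart from FCER1G, MK-2206 came above a FOXM1-KD group in CD14 and CD36 and Control with AraC did so in FCGR1A.

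Likeness of pattern was measured as Pearson's r of log2(CPM + 1) over the 16 libraries, which fall into 2 sets as CD34 does, so high values are common and are given as a description. Of 12224 protein-coding genes with a mean of at least 1 CPM, LYZ was most like PRR13 (r = 0.983), CYBB (0.981) and XYLB (0.979). MNDA was most like PRTN3 (0.990), DEFA3 (0.988) and MS4A3 (0.987), of which PRTN3 and DEFA3 encode granule proteins and DEFA3 is uncertain because its copy DEFA1 is nearly identical. CD4 was most like PTX4 (0.997), FAM50B (0.995) and CBX1 (0.995). TYROBP was most like IL17RA, ZBTB7B and NCF4 (0.987 to 0.981), CSF1R like NRGN and HAL (0.979 and 0.965), and CD14 like TMEM54, SLC37A2 and TCF7 (0.977 to 0.965). CD86 was most like PTGFRN, AOC1 and FCGR2C (0.970 to 0.962) and FCGR1A like NCS1, FCGR2B and CUEDC1 (0.976 to 0.920). FCER1G was most like SMYD4, SLC37A1 and NIPA1 (0.938 to 0.936), and its r with LYZ was -0.39 and with CD4 -0.73. CD36 had a mean under 1 CPM and was left out.

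Other genes of the monocyte programme were read from lists of 78 partners: receptors and ligands, Fc and ITAM-coupled receptors, ITAM signalling, transcription factors, effectors and the HIN-200 relatives of MNDA. In FOXM1-KD against Control cells 33 were called higher and 12 lower of 76 tested under AraC, and 28 higher and 17 lower of 73 under venetoclax. Of all protein-coding genes, 17.4% were called higher and 16.3% lower under AraC and 14.2% and 16.2% under venetoclax. Of the partners, 35 were called in both drugs, 24 higher and 11 lower. The share of all protein-coding genes called in both drugs was not computed, so this count has no background. The partners were therefore called in either direction, and the median log2 fold change over the lists was 1.15 and 0.72.

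**Figure D5:**
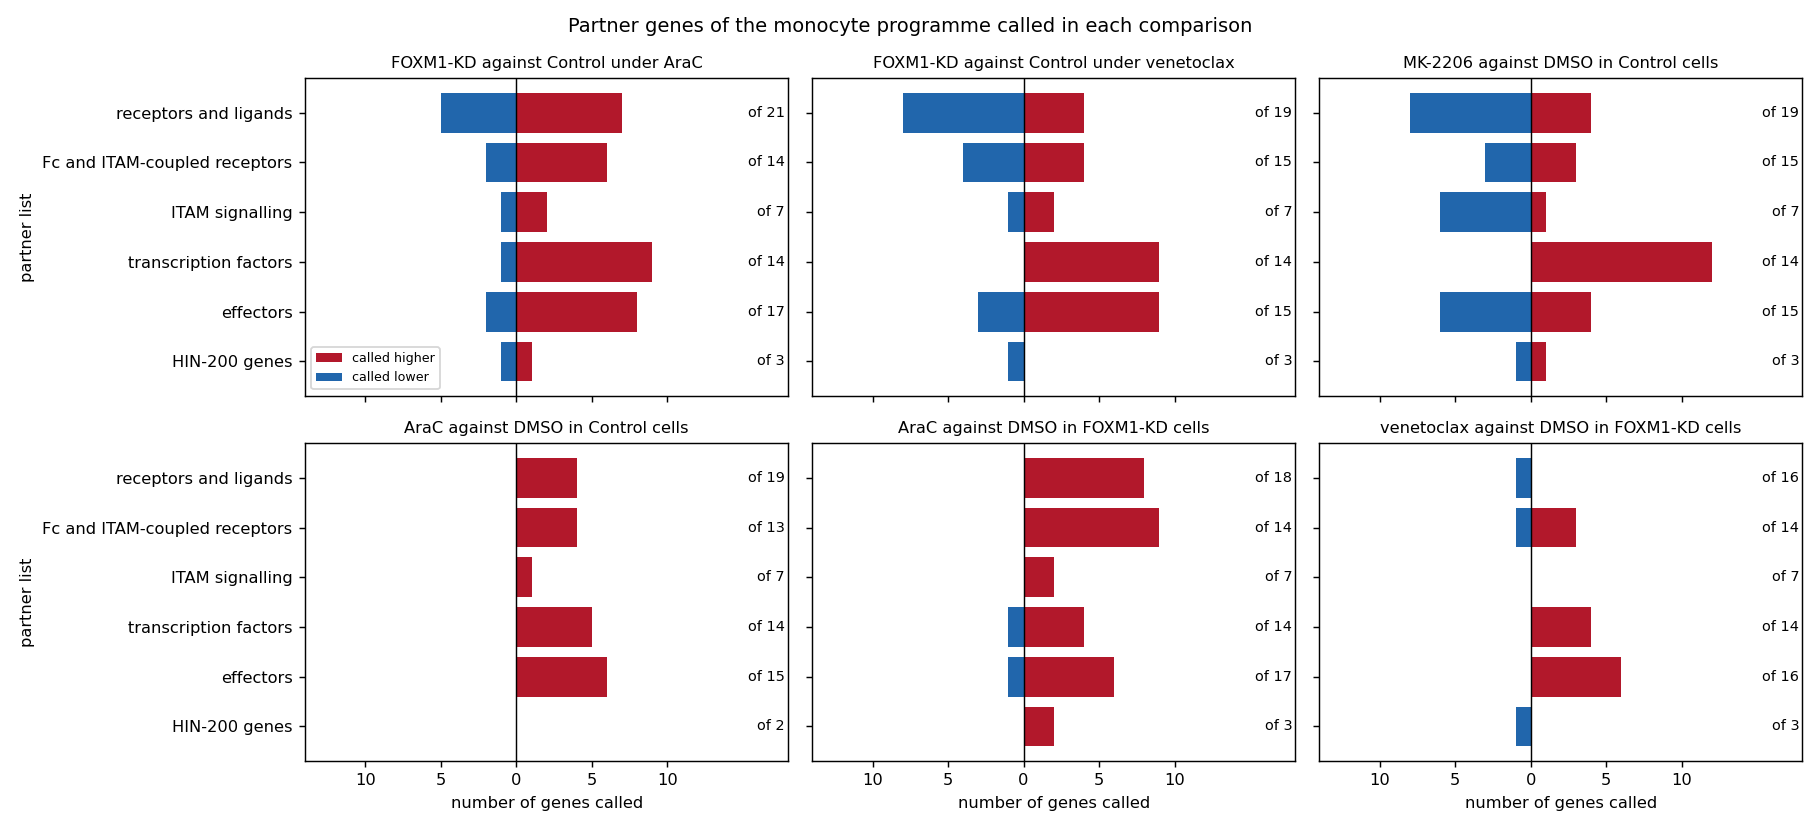
Number of partner genes called higher (red, right) and lower (blue, left) in 6 comparisons, by list, with the number tested at the right of each row. The transcription factors are called higher in 9 of 14 in each FOXM1-KD comparison under drug and in 12 of 14 with MK-2206, whereas receptors and ligands are called in both directions.

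Of the transcription factors, 9 were called higher and 1 lower of 14 under AraC and 9 and 0 under venetoclax. CEBPA, a driver of myeloid commitment, was at 607 and 434 CPM in FOXM1-KD against 87.4 and 72.4 CPM in Control cells with AraC (log2 fold change 2.66), and IRF8, a factor of monocyte and dendritic cell fate, at 62.9 and 65.9 CPM against 1.24 and 1.09 CPM (5.74). SPI1 itself was at 186 and 143 CPM against 132 and 111 CPM with AraC and was not called, and was called under venetoclax at 357 and 209 CPM against 86.5 and 102 CPM (1.59). With MK-2206, 12 of 14 factors were called higher and 0 lower, beside 30.2% and 24.3% of all protein-coding genes. KLF4 was then at 382 and 227 CPM against 0.0548 and 0 CPM with DMSO, and EGR1 at 696 and 434 CPM against 0.438 and 0.220 CPM. CEBPA, IRF8, SPI1, KLF4 and EGR1, and the partners named in the next paragraphs other than TLR2, FCAR, MITF, LCK, CD28 and FCER1A, were picked from the lists after their values were seen.

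By the rule for naming, the largest rises in both drugs were TLR2, FCAR and MITF. This order rests on fitted changes that depend on the prior count, since Control libraries had 0 counts of TLR2 in both drugs and of FCAR and MITF with venetoclax. TLR2, which senses bacterial lipopeptides, was at 91.1 and 103 CPM with AraC and 41.4 and 89.0 CPM with venetoclax in FOXM1-KD cells and at 0 counts in the paired Control libraries. FCAR, the IgA receptor that signals through FCER1G, was at 9.26 and 8.21 CPM with AraC and 109 and 38.6 CPM with venetoclax, against 1 count in all in the 4 Control libraries. MITF was at 17.0 and 19.8 CPM with AraC and 9.63 and 11.0 CPM with venetoclax, against 0 to 0.143 CPM. The largest falls were LCK, CD28 and FCER1A. LCK, the kinase bound by CD4 in T cells, was at 17.9 and 15.9 CPM in Control cells with AraC and at 0 counts in FOXM1-KD cells, where CD4 is high. CD28, the T cell receptor for CD86, was at 3.41 and 3.85 CPM and at 0 counts likewise. FCER1A, the IgE receptor chain that pairs with FCER1G, was at 9.05 and 9.65 CPM in Control and at 0.295 and 0.263 CPM in FOXM1-KD cells with AraC, and so fell along with its adapter.

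Other partners differed in direction. CSF1, the ligand of CSF1R, was at 234 and 221 CPM after MK-2206 against 2.47 and 2.69 CPM with DMSO, while in FOXM1-KD cells with DMSO it was at 1.11 and 0 CPM. TLR4 was at 34.8 and 44.6 CPM in FOXM1-KD cells with AraC against 0.724 and 0.666 CPM, but its partner LY96 fell, to 2.48 and 4.32 CPM from 9.51 and 13.5 CPM. The integrin ITGAM (CD11b), often read as a sign of myeloid maturation, was at 22.8 and 19.0 CPM in FOXM1-KD and at 192 and 169 CPM in Control cells with AraC, a fall of 3.15 on the log2 scale by edgeR (adjusted p = 4.5e-44). IFI16, a HIN-200 relative of MNDA, also fell, to 71.7 and 105 CPM from 299.6 and 388 CPM with AraC. Of 17 effectors tested under AraC 8 were called higher and 2 lower, and of 15 under venetoclax 9 and 3. S100A8, S100A12 and FCN1, which mature monocytes express strongly, stayed under 1 CPM in every library. CYBB, the oxidase subunit of phagocytes, was at 170 and 203 CPM in FOXM1-KD against 1.86 and 1.47 CPM in Control cells with AraC (log2 fold change 6.77).

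AraC in FOXM1-KD cells raised 31 of 73 partners and lowered 2, and in Control cells raised 20 of 70 and lowered 0. Of all protein-coding genes, AraC raised 11.9% and lowered 2.44% in FOXM1-KD cells and raised 6.19% and lowered 1.97% in Control cells. The Fc and ITAM-coupled receptors made up 9 of the 31, with 14 of that list tested. FCGR2B, the inhibitory IgG receptor, rose in FOXM1-KD cells from 1.85 and 1.05 to 19.3 and 17.3 CPM (3.57), and ITGAM and ITGAX rose by 4.45 and 4.15 on the log2 scale. CD80, the relative of CD86, had a mean under 1 CPM in every condition. Venetoclax in FOXM1-KD cells raised 13 of 70 partners and lowered 3, beside 2.05% and 0.791% of protein-coding genes. As with the 10 genes, no protein-coding gene was called in the AraC or venetoclax comparisons within a population without either of the libraries with that drug.

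Markers of other cells moved with the same division of libraries. The promyelocyte and granulocyte list of 8 genes summed to 1967 to 15829 CPM in FOXM1-KD libraries, to 422 to 603 CPM after MK-2206 and to 2.84 to 21.3 CPM in the other 8 Control libraries. MPO, the leading gene of that list, was at 1520 to 10642 CPM in the 6 FOXM1-KD libraries and ELANE and AZU1 were at 0 in Control cells with DMSO. CEACAM8, LTF and MMP8 of the list had 0 to 1 counts in FOXM1-KD libraries. After MK-2206 MPO was at 396 to 555 CPM, and ELANE, PRTN3 and AZU1 were also above their DMSO values. CTSG went the other way, at 4.16 to 6.14 CPM after MK-2206 against 10.8 to 11.0 CPM with DMSO. For CD4, the T cell markers CD3D, CD3E and CD3G were at 0 counts in FOXM1-KD cells with DMSO and AraC. TRAC, of the same T cell list of 6 genes, went the other way. It had 14 to 53 counts in FOXM1-KD cells with DMSO, 10 to 68 with venetoclax and 171 to 190 with AraC. In the paired Control groups TRAC had 0 to 1, 4 and 0 counts. The list summed to 0.717 to 13.8 CPM over the 6 FOXM1-KD libraries, with TRAC the leading gene, and to 0.624 to 15.6 CPM over the Control libraries. The dendritic cell marker CLEC9A had means of 23.7 to 28.5 CPM in the 4 Control groups at 48 h and was at 0 in FOXM1-KD cells. Natural killer and B cell sums were lower in FOXM1-KD (5.79 to 32.6 and 0.776 to 11.5 CPM) than in these Control groups (56.4 to 149 and 13.3 to 27.9 CPM). These natural killer sums came from NKG7 and PRF1, as GNLY, KLRD1 and NCAM1 had 0 to 5 counts in these Control groups. PAX5 had 0 counts in Control cells with STL427944 and venetoclax. It led the B cell list in FOXM1-KD cells, with means of 1.22 (DMSO), 1.02 (venetoclax) and 7.52 CPM (AraC). The erythroid list was at or near 0 throughout. VIM, of the stroma and epithelium list, had means of 289 to 552 CPM in FOXM1-KD cells, 772 CPM after MK-2206 and 2.58 to 12.1 CPM in the other Control groups. The part of these differences in the levels of the 10 genes was not tested.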

How the data were processed

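RNA-seq libraries had been prepared from KG-1 total RNA after removal of ribosomal RNA. The authors aligned reads to hg38 with STAR and deposited featureCounts counts per Ensembl gene without normalization. The paper and the labels name different stranded kits, and the strand setting of the counting is not given in the sources used here. Counts are taken as reads, and intervals and floors (3 counts) cover counting error only. Of 43836 genes, 43177 were matched to GENCODE release 44, and 19680 of these are protein-coding.

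For each comparison only its own libraries were fitted, after TMM scaling, with the quasi-likelihood method of edgeR 4.0.16 (R 4.3.3). Genes without a count in them were dropped, p-values were adjusted by Benjamini-Hochberg across the remainder, and the thresholds were 2-fold and an adjusted p below 0.1. The paper uses these values too, but takes the adjusted p from a comparison across groups, which is an alternative here. The prior count of fitted fold changes was 0.125, and standard errors come from the fitted model. Shares of genes called refer to protein-coding genes. The fit was tested on simulated data. Alternatives were DESeq2 1.42.0, other scalings, filters and thresholds, 1 fit of all libraries, the replicate block and leaving out each library. Promoter windows were taken from RefSeq. Other tools were Python 3.11.15, pandas 2.3.3, scipy 1.17.1 and matplotlib 3.10.9.

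Replicates differed by more than sampling noise (chi-square statistic divided by its degrees of freedom, 8.58 to 103), so each library counted as 1 replicate. Replicate numbers are given in the labels for MK-2206, AraC and venetoclax only. Among these 5 groups, deviations from the group mean correlated between same-numbered libraries in all 10 pairs (r = 0.465 to 0.758 over 12224 genes), so the numbers pair these libraries. DMSO libraries have no number and allow no block.

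The 10 genes, the partner lists and the marker lists were chosen with earlier results of these data known. Partners are given as counts, and by name the 3 largest rises and 3 largest falls, by mean log2 fold change, among those called in both FOXM1-KD comparisons under drug. The most alike genes are the 3 with the highest r for each gene of at least 1 CPM on average. FOXM1 and CD34 served as checks. Some items are not reported here. Other names in the text were chosen after their values were seen.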

Additional observations from a re-analysis of the deposited data

Results flagged for a closer look

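The response to AraC differed between FOXM1-KD and Control cells for FCER1G and CD86 by the interaction term of edgeR, where 7.18% of 16388 protein-coding genes were called. The log2 fold change of FCER1G was larger in FOXM1-KD cells by 2.08, and that of CD86 by 1.94. In FCER1G the library values went from 0.846 and 0.633 CPM to 3.95 and 4.58 CPM in FOXM1-KD cells and from 4.77 and 9.56 CPM to 10.6 and 9.08 CPM in Control cells. In CD86 they went from 4.50 and 2.53 CPM to 36.3 and 47.0 CPM and from 0.658 and 0.659 CPM to 2.07 and 2.09 CPM. Every AraC library of FOXM1-KD cells lay above both DMSO libraries in these 2 genes. In 53.9% of 15415 protein-coding genes these libraries did not overlap in either direction. Leaving out either Control AraC library, which leaves that group with 1, ended both calls, and FCER1G also lost its call without Control DMSO replicate 2. Over the libraries left out, the difference was 1.49 to 2.49 for FCER1G and 1.45 to 2.41 for CD86. No group held more than 2 libraries, so no library was compared with its group as a possible outlier.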

How the results depend on the processing

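For the 10 genes, the count called in FOXM1-KD against Control cells under AraC was 9 under every alternative, and under venetoclax it was 7 to 10, with 8 in DESeq2. In a paired fit with the replicate number as a block, the counts were 9 under AraC and 10 under venetoclax, and the block changed no call of a single gene. Of all protein-coding genes, the paired fit called 5294 of 16030 under AraC and 5007 of 16207 under venetoclax, and DESeq2 called 4988 and 4545. With MK-2206, DESeq2 called 5 of the 8, and leaving out each library gave 3 to 6. With the adjusted p taken across all 8 groups, 2 genes were called with STL427944 (1501 of all 14916 protein-coding genes), 2 with venetoclax in Control cells (1254 of 14898), 5 with venetoclax in FOXM1-KD cells (2325 of 15667), 4 in the AraC response difference (3407 of 16388) and 3 in the venetoclax response difference (3007 of 16569). That p, the form the paper uses, tests for any difference among the groups and not for the comparison itself. DESeq2 called 1 gene with venetoclax in FOXM1-KD cells (271 of 15667 protein-coding genes). In the AraC response difference 1 fit of all 16 libraries called 0 (433 of 18206 protein-coding genes). Leaving out each library changed the counts with MK-2206, with STL427944 and with AraC in either population. It also changed those with venetoclax in FOXM1-KD cells and in the AraC response difference. Each such fit leaves a group with 1 library, so these counts are not set beside a share of all genes. The median log2 fold change with DMSO was 2.88 to 3.27 over the libraries left out. With MK-2206 the log2 fold change of CD36 ranged from -2.87 without MK-2206 replicate 2 to 4.25 without replicate 1. Of 654 alternative values of 61 single-gene fold changes, this was the 1 that reversed, and 65 were no longer called. The causes were not tested, other than that a group reduced to 1 library takes its spread from the other libraries of the fit. Genes with few counts (CD14, CD36, and MNDA in Control cells) are limited by depth, most of all in the MK-2206 libraries.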
